A study of Mus musculus with 45 samples.

Results

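The genes described here are the vascular and barrier genes of the mouse nucleus accumbens, 36 in all, measured in a time course after chronic intermittent ethanol (CIE) vapor. They were taken from a list of endothelial, mural, transport and basement membrane genes, and each was read from the brightest of the probesets that carry its symbol alone. Of the 36 genes, 34 had such a probeset, among 18193 genes that did: 14 endothelial, 9 mural, 9 transporter and 2 basement membrane genes. Ly6c1 shares its probeset with other symbols and Ly6a has none, so neither has a value here. The 34 genes had 57 probesets between them, and 16 genes had more than 1.

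All mice were adult male C57BL/6J mice. CIE mice spent 16 h a day for 4 days of each of 4 cycles in chambers holding 10 to 13 mg ethanol per liter of air, with 7 days without ethanol between cycles. Intoxication was started with an injection of ethanol (1.6 g/kg) together with pyrazole (1 mmol/kg), an alcohol dehydrogenase inhibitor. Ctrl mice breathed air and received saline with the same dose of pyrazole, so pyrazole was common to both arms. Nucleus accumbens was dissected when withdrawal from the last session had lasted 0 h, 8 h, 72 h or 7 d, and each of 45 arrays held the RNA of 1 mouse. CIE groups held 6, 5, 5 and 6 mice at these times, and Ctrl groups held 6, 5, 6 and 6.

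Brain capillaries are tubes of endothelial cells sealed by tight junctions, wrapped in a basement membrane and covered by pericytes, while arterioles carry contractile smooth muscle cells. Because the seal stops passage between the cells, nutrients enter through carriers in the endothelial membrane and many drugs are returned to the blood by efflux pumps. Pericytes and smooth muscle cells together are called mural cells.

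Values are log2 intensities, so a difference of 1 is a doubling of signal. A gene was called when limma's moderated test gave a Benjamini-Hochberg adjusted p of 0.01 or less over all 45037 probesets. Array medians lay between 6.94 and 6.96, and 4 of the 34 genes (Pecam1, Tie1, Anpep and Myh11) averaged below them, with Anpep at 4.16. The standard error of the CIE minus Ctrl difference at 0 h ran from 0.0445 (Itm2a) to 0.227 (Acta2). Arrays fell into 6 sets of 6 to 8 arrays, recognized by exactly equal values, and 1 Ctrl array at 0 h (replicate 20) belonged to no set. The sets are called hybridization sets here, which is an inference, since the labels name no batch. Medium spiny neuron markers, which mark the striatal tissue named in the labels, averaged between 10.12 and 13.70. Cortical pyramidal neuron markers, averaged over 8 genes, were highest within the CIE 0 h group in replicates 5, 67 and 72. They lay 1.02, 0.77 and 1.26 above the series mean there. The same 3 arrays were lowest of that group in medium spiny neuron markers (-0.35, -0.29 and -0.46, averaged over 10 markers). This profile was not confined to 0 h. Cortical and medium spiny levels were 0.93 and -0.28 in CIE replicate 27 at 7 d. They were 0.78 and -0.13 in CIE replicate 7 at 7 d, and 0.59 and -0.29 in CIE replicate 15 at 8 h. Fits below without replicates 5, 67 and 72 kept these other arrays.

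At the end of the last vapor session, Vtn, the gene of the matrix protein vitronectin that pericytes make, fell in CIE mice by 0.46, and a pair of endothelial carriers rose, Slc2a1 (glucose transporter GLUT1) by 0.33 and Mfsd2a (lysophosphatidylcholine transporter) by 0.43. These 3 of the 34 genes were called at 0 h, where 1.93% of all genes were (1.28% higher and 0.654% lower in CIE). At an adjusted p of 0.05 or less, 11 of 34 passed, 3 higher and 8 lower in CIE, against 4.81% of all genes (3.05% higher and 1.76% lower). The 8 lower genes were Kdr, Tek and Itm2a (endothelial), Rgs5, Kcnj8 and Vtn (mural), and Slco1c1 and Pltp (transporters). The 3 higher genes were all transporters: Slc2a1, Mfsd2a and Abcb1a. In bulk tissue, fewer cells of a type and less RNA per cell cannot be told apart. When hybridization set was fitted as a block, Vtn was the 1 member still called at 0 h, against 0.863% of all genes. Fitted on the 0 h arrays alone, no member was called. The share of all genes called in that smaller fit was not counted, so this is no result about the members.

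**Figure D1:**
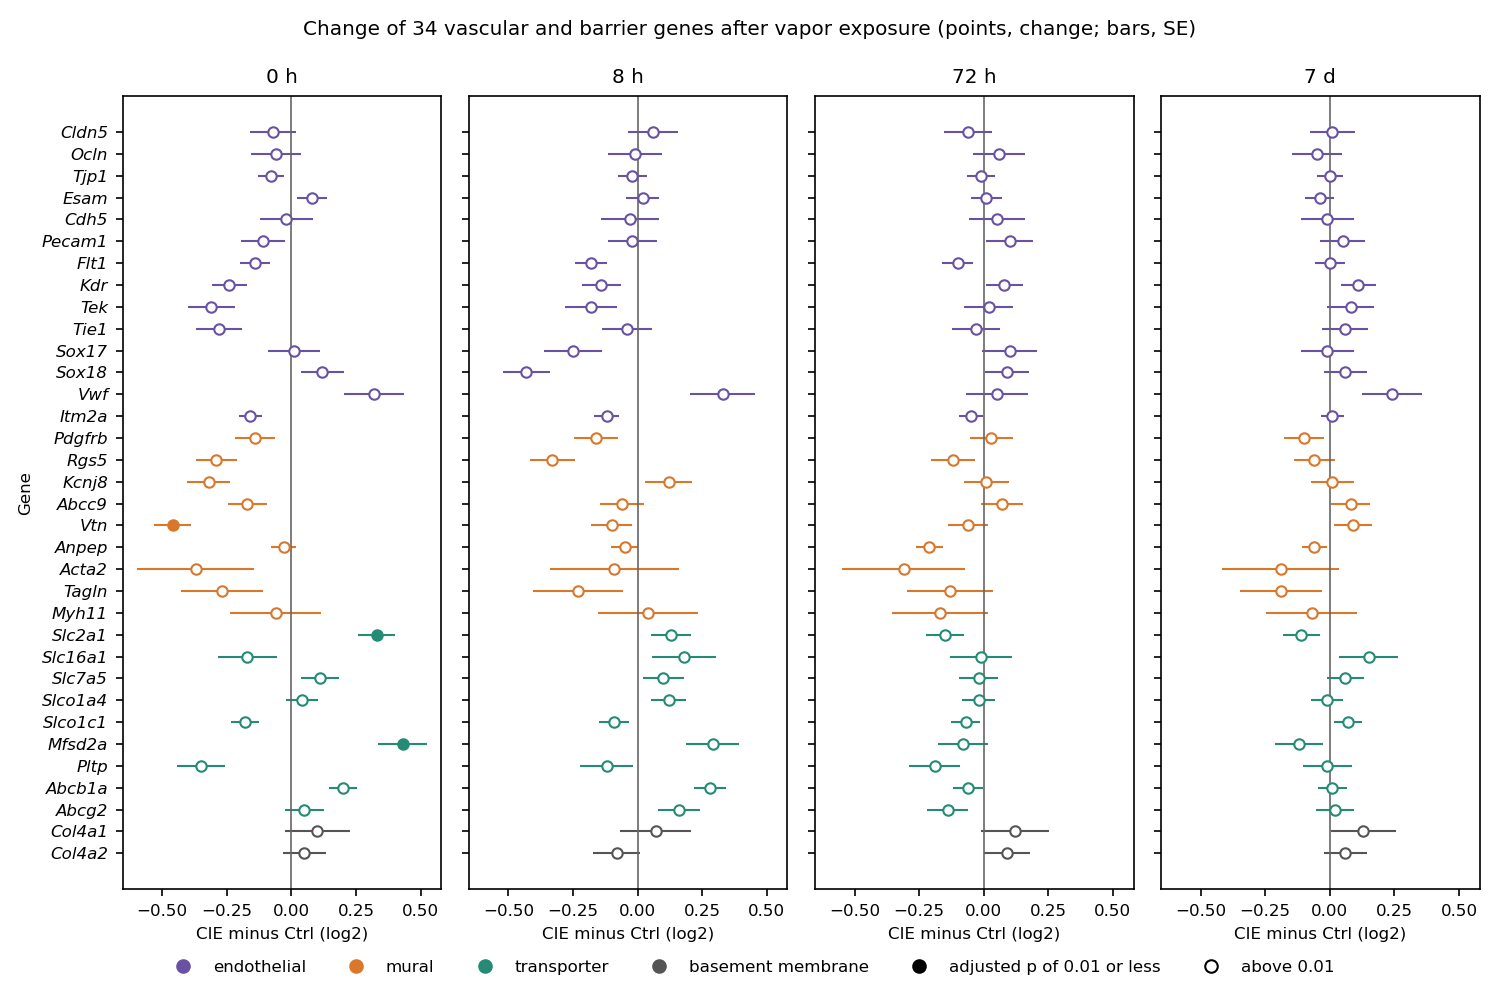
CIE minus Ctrl difference in log2 units (x axis) of each of the 34 genes (y axis, colored by class) at 0 h, 8 h, 72 h and 7 d, with the standard error as a bar and a filled point where the adjusted p was 0.01 or less. Vtn lies at -0.46, Slc2a1 at 0.33 and Mfsd2a at 0.43 at 0 h, and no point is filled at the later times.

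Mural genes lay below 0 at 0 h in 9 of 9 cases, with a median difference of -0.27, while the median of all genes was 0.02 and 43.1% of genes were negative. These genes share arrays, so the 9 signs are not independent. Averaged over the 9 centered genes, CIE replicates 43 and 67 (0.10 and 0.05) lay inside the Ctrl range of -0.09 to 0.15. CIE replicates 5, 17, 26 and 72 lay between -0.46 and -0.26. Of 15 further mural genes, 6 were above 0 at 0 h, with a median of -0.03. Vtn ranged from 9.84 to 10.44 in CIE mice (median 10.08) and from 10.41 to 10.75 in Ctrl mice (median 10.56). Of the 6 CIE arrays, 5 lay below the lowest Ctrl array, and the remaining one, replicate 43, fell inside the Ctrl range. The means were 10.12 ± 0.217 in CIE and 10.57 ± 0.112 in Ctrl (SD, n = 6 each), a fold of 0.729 (SE of the log2 difference 0.0731, adjusted p = 0.00011). Vtn was the only member that stayed called with each of the 12 arrays left out in turn (adjusted p from 7.29e-06 to 0.000909), and in the set-blocked fit its adjusted p was 0.00144. Without CIE replicates 5, 67 and 72 its difference was -0.372 and its adjusted p 0.0105. Within the 5 hybridization sets that hold both groups, the differences were -0.70, -0.62, -0.55, -0.54 and 0.03. A second, dimmer Vtn probeset also fell, by 0.34 (adjusted p = 0.00767).

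Rgs5, a regulator of G protein signaling and a standard pericyte marker, was lower in CIE at both early times without passing the test at 0.01. At 0 h it ranged from 10.88 to 11.16 in CIE mice (median 11.05) and from 10.99 to 11.55 in Ctrl mice (median 11.39), and the groups overlapped. The difference was -0.29 (SE 0.0803, adjusted p = 0.0306). At 8 h the CIE arrays read 10.91, 11.04, 11.09, 11.20 and 11.23, and the Ctrl arrays 11.30, 11.31, 11.44, 11.52 and 11.54. No CIE array reached the lowest Ctrl array at 8 h, a separation that 2.1% of all genes showed in either direction, yet the difference of -0.33 did not pass the test (SE 0.088, adjusted p = 0.117). The F test over the 4 times gave Rgs5 an adjusted p of 0.0146. Its 3 other probesets differed by -0.69, -0.38 and -0.79 at 0 h, none of them past 0.01. Without Ctrl replicate 20, the array of no set, Rgs5 was called at 0 h (difference -0.356, adjusted p = 0.00485) and so was Kcnj8. Of the 12 fits that left out 1 array, this was the only 1 that called either gene. The Rgs5 adjusted p reached 0.109 without Ctrl replicate 30.

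Kcnj8 and Abcc9 encode the pore and the regulatory subunit of the ATP-sensitive potassium channel of pericytes. Kcnj8 ranged from 6.66 to 7.10 in CIE mice (median 6.98) and from 6.97 to 7.45 in Ctrl mice (median 7.28) at 0 h, with 3 of 6 CIE arrays below the lowest Ctrl array. Its difference of -0.32 had an adjusted p of 0.0187, and that of Abcc9 (-0.17) an adjusted p of 0.247. Pdgfrb, the receptor through which pericytes are recruited, differed by -0.14 (adjusted p = 0.363). The contractile genes Acta2, Tagln and Myh11 differed by -0.37, -0.27 and -0.06 with standard errors of 0.227, 0.159 and 0.176, and none passed. Acta2 was the most scattered: its CIE arrays at 0 h ran from 8.03 to 9.93, wider than the Ctrl range of 9.04 to 9.46.

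The start regions of Vtn, of Rgs5, the pericyte gene whose groups separated at 8 h, and of both called carriers are shown here so that their short sequence elements can be compared. The windows run from 250 bases before to 50 bases after the annotated start, from RefSeq on build GRCm38.p6, and 24 of the 34 genes have one. Capitals mark matches, on either strand, to 5 motifs. The GC box, bound by Sp1 and its relatives, was searched as GGGCGG. The CCAAT box was searched by the letters of its name. The TATA box, where the basal machinery binds, was searched as TATAAA. The shared core of sites for Sox factors was searched as ACAAT. The core of hypoxia response elements was searched as ACGTG.
Vtn promoter, chr11:78498870-78499169, + strand: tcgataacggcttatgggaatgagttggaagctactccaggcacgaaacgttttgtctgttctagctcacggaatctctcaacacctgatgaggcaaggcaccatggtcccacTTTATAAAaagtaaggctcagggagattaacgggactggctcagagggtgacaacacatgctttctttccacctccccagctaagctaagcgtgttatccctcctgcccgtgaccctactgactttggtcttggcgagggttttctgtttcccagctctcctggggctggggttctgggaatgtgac
Rgs5 promoter, chr1:169655251-169655550, + strand: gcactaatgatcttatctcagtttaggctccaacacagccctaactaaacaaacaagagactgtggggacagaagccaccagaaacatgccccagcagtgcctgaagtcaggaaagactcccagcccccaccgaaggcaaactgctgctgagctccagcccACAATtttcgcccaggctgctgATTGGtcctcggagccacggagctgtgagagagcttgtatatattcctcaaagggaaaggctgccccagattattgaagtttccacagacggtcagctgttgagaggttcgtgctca
Slc2a1 promoter, chr4:119108495-119108794, + strand: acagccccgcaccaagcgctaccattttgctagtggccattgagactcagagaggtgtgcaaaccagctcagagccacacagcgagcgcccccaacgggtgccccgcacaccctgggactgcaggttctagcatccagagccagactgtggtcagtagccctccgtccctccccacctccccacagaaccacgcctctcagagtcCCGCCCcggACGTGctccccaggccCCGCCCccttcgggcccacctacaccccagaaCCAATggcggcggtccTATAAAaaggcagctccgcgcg
Mfsd2a promoter, chr4:122961139-122961438, - strand: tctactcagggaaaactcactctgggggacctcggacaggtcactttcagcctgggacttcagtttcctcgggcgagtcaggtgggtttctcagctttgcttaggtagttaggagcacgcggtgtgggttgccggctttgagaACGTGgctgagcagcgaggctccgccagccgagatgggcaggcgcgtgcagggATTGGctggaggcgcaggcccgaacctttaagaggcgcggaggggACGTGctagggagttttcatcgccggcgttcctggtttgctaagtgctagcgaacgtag
The Slc2a1 window held 2 GC boxes, 1 CCAAT box, 1 TATA box and 1 hypoxia core, and the Mfsd2a window held 2 hypoxia cores and 1 CCAAT box. The CCAAT and TATA matches of Slc2a1 began at bases 13 and 29 after the annotated start, not before it. Over all 32851 windows, the hypoxia core was in 19.6%, the GC box in 35.7%, the CCAAT box in 37.4%, the TATA box in 13.6% and the Sox core in 31%. Vtn held overlapping TATA box matches on both strands 135 and 137 bases before its start, Rgs5 held 1 CCAAT box and 1 Sox core that do not overlap, and the Abcb1a window held none of the 5 motifs. The hypoxia core was present for 5 of the 24 genes with a window: Slc2a1, Mfsd2a, Slc16a1, Slco1c1 and Tjp1. These matches describe letters in a window and show no binding.

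Among the transporters, Slc2a1 separated the groups at 0 h. It ranged from 11.43 to 11.86 in CIE mice (median 11.60) and from 11.26 to 11.31 in Ctrl mice (median 11.29). Every CIE array lay above every Ctrl array, as 1.63% of all genes did in either direction. The Ctrl arrays were least scattered at 0 h: their SDs at 8 h, 72 h and 7 d were 0.116, 0.16 and 0.12. Ctrl arrays reached 11.51, 11.70 and 11.57 at those times, above the lowest CIE array at 0 h. The means were 11.62 ± 0.177 in CIE and 11.29 ± 0.0202 in Ctrl (SD, n = 6 each), a fold of 1.26 (SE of the log2 difference 0.0712, adjusted p = 0.00345). The other Slc2a1 probesets differed by 0.36 (adjusted p = 0.00496) and 0.29 (adjusted p = 0.0385). All 5 sets with both groups were positive, from 0.17 to 0.56, but in the set-blocked fit the adjusted p was 0.0218, and Slc2a1 was called in 9 of the 12 fits that left out 1 array, the exceptions being the fits without CIE replicate 5, 17 or 26.

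Mfsd2a, the carrier that brings omega-3 lipids into the brain and restrains vesicle traffic across the endothelium, ranged from 8.70 to 9.49 in CIE mice at 0 h (median 9.03) and from 8.47 to 8.92 in Ctrl mice (median 8.60). All but 1 of the CIE arrays lay above the highest Ctrl array. The means were 9.07 ± 0.265 in CIE and 8.64 ± 0.152 in Ctrl (SD, n = 6 each), a fold of 1.34 (SE 0.0937, adjusted p = 0.00458). The differences were positive in 5 of 5 sets, from 0.04 to 1.02. Mfsd2a was called in 6 of the 12 fits that left out 1 array, but not without CIE replicate 5, 17 or 26 or Ctrl replicate 38, 48 or 74, and its adjusted p was 0.0234 in the set-blocked fit. At 8 h the CIE arrays read 9.01, 9.05, 9.16, 9.23 and 9.26 and the Ctrl arrays 8.58, 8.68, 8.95, 8.98 and 9.08, which overlapped, and the difference of 0.29 did not pass (adjusted p = 0.349).

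Abcb1a encodes P-glycoprotein, the main drug efflux pump of the barrier. At 0 h it ranged from 8.45 to 8.76 in CIE mice (median 8.55) and from 8.27 to 8.45 in Ctrl mice (median 8.38), with 5 of 6 CIE arrays above the highest Ctrl array. The difference was 0.20 (SE 0.0552, adjusted p = 0.0286). At 8 h the CIE arrays read 8.53, 8.73, 8.74, 8.81 and 8.85, and the Ctrl arrays 8.31, 8.38, 8.49, 8.52 and 8.56. There 4 of 5 CIE arrays lay above the Ctrl range, with a difference of 0.28 (SE 0.0605, adjusted p = 0.0312). Neither time passed 0.01 alone, but the F test over the 4 times did (adjusted p = 0.00504, and 0.0256 in the set-blocked fit). A second probeset differed by 0.12 at 0 h (adjusted p = 0.423) and by 0.37 at 8 h (adjusted p = 0.0266).

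The 6 remaining transporters were not called at 0 h. Pltp, the phospholipid transfer protein, differed by -0.35 (adjusted p = 0.0255), with its second probeset at -0.37, and the thyroxine carrier Slco1c1 by -0.18 (adjusted p = 0.0374). The monocarboxylate transporter Slc16a1 (-0.17), the large neutral amino acid transporter Slc7a5 (0.11), the organic anion transporter Slco1a4 (0.04) and the efflux pump Abcg2 (0.05) had adjusted p-values of 0.488 or more. The transporters thus lay on both sides of 0, and their median difference was 0.05.

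**Figure D2:**
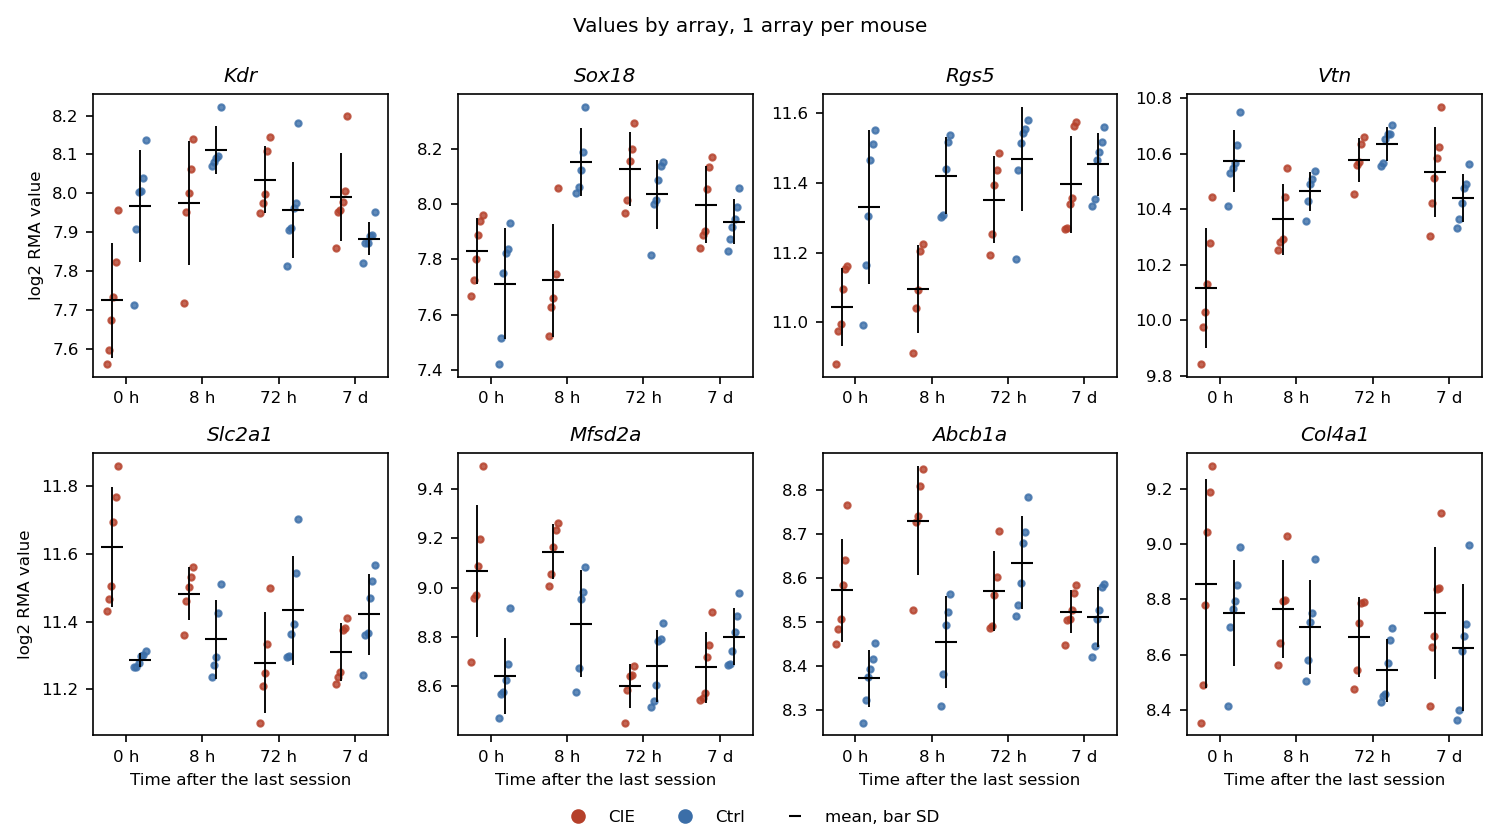
log2 value (y axis) of 8 genes in each of the 45 arrays at 0 h, 8 h, 72 h and 7 d (x axis), with CIE (left, red) beside Ctrl (right, blue) and the mean and SD in black. CIE arrays of Slc2a1 all lie above the Ctrl arrays at 0 h, and CIE arrays of Rgs5 all lie below the Ctrl arrays at 8 h.

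None of the 14 endothelial members was called at 0 h, 8 h, 72 h or 7 d. For all genes the shares called were 1.93%, 0.0824%, 0% and 0%. Emcn, an endothelial gene outside the members, was called at 0 h and is given below. At 0 h the 14 endothelial genes had a median difference of -0.07 and ran from -0.31 to 0.32. The tight junction genes Cldn5 (-0.07), Ocln (-0.06) and Tjp1 (-0.08) and the adhesion genes Esam (0.08), Cdh5 (-0.02) and Pecam1 (-0.11) all had adjusted p-values of 0.475 or more. The growth factor receptors had larger differences. Kdr, the main VEGF receptor, ranged from 7.56 to 7.96 in CIE mice at 0 h (median 7.70) and from 7.71 to 8.14 in Ctrl mice (median 8.00), overlapping, and differed by -0.24 (SE 0.0682, adjusted p = 0.0311). Tek, the angiopoietin receptor, differed by -0.31 (adjusted p = 0.0397), its partner Tie1 by -0.28 (adjusted p = 0.0676) and the VEGF receptor Flt1 by -0.14 (adjusted p = 0.207). Itm2a, a membrane protein gene enriched in endothelium, differed by -0.16 (adjusted p = 0.0348). Vwf, von Willebrand factor, was the highest of the class at 0.32 (adjusted p = 0.119).

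At 8 h none of the 34 genes was called, with 0.0824% of all genes called, 8 members at an unadjusted p under 0.05 (8.04% of all genes), and 2 members at an adjusted p of 0.05 or less (0.242% of all genes). One was Abcb1a, and the other was Sox18, a SoxF transcription factor of endothelial cells. Sox18 read 7.52, 7.63, 7.66, 7.75 and 8.06 in CIE arrays at 8 h and 8.04, 8.06, 8.12, 8.19 and 8.35 in Ctrl arrays. A single CIE array, replicate 15, reached into the Ctrl range. The difference was -0.43 (SE 0.0905, adjusted p = 0.0238), and with each of the 10 arrays left out in turn it ran from -0.512 to -0.378 (adjusted p from 0.00266, without replicate 15, to 0.119, without CIE replicate 1). At 0 h Sox18 differed by 0.12 (adjusted p = 0.52), and the change at 8 h minus that at 0 h was -0.55 (adjusted p = 0.107). Its relative Sox17 differed by -0.25 at 8 h (adjusted p = 0.586).

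At 72 h and 7 d no member was called, nor was any of the 18193 genes (0%), and 2 members at 72 h (4.56% of all genes) and 1 at 7 d (1.97%) had an unadjusted p under 0.05. Anpep, the aminopeptidase CD13 of pericytes, read 3.96, 3.99, 4.05, 4.11 and 4.14 in CIE mice at 72 h and from 4.16 to 4.32 in Ctrl mice (median 4.28). These groups did not touch, as 0.742% of all genes did not, but the level was far under the array medians and the adjusted p was 0.673. All 9 transporters lay below 0 at 72 h, between -0.19 and -0.01, where 32.4% of all genes were negative.

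Whether a difference changed with time was tested directly, in comparisons that share the 0 h arrays. The Vtn difference of -0.46 at 0 h was followed by -0.10 at 8 h, by -0.06 at 72 h and by 0.09 at 7 d, and that at 7 d exceeded that at 0 h by 0.55 (SE 0.103, adjusted p = 0.00384). Vtn was the 1 member called in that comparison, in which 0.231% of all genes were, and it was called in 23 of the 24 fits that left out 1 array. Without CIE replicate 5 at 0 h, and in the set-blocked fit (0.033% of all genes), it was not called. The change at 8 h minus that at 0 h called no member (0% of all genes), with 4 members at an unadjusted p under 0.05 (6.6% of all genes), nor did that at 72 h minus 0 h (0.0824%), with 9 members at an unadjusted p under 0.05 (8.88%). The Slc2a1 and Mfsd2a differences at 7 d minus those at 0 h were -0.44 (adjusted p = 0.0207) and -0.55 (adjusted p = 0.0311), past 0.05 as 0.929% of all genes were. In the F test over the 4 times, Vtn (adjusted p = 0.00158), Slc2a1 (0.00989) and Abcb1a (0.00504) were called, 3 of 34 against 1.03% of all genes, and 6 at 0.05 (with Sox18, Rgs5 and Mfsd2a), against 2.53%. None was called in the set-blocked fit (0.407% of all genes), where Vtn had an adjusted p of 0.0142. With each of the 45 arrays left out in turn, the F test called Vtn in 45 fits, Abcb1a in 40 and Slc2a1 in 13.

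**Figure D3:**
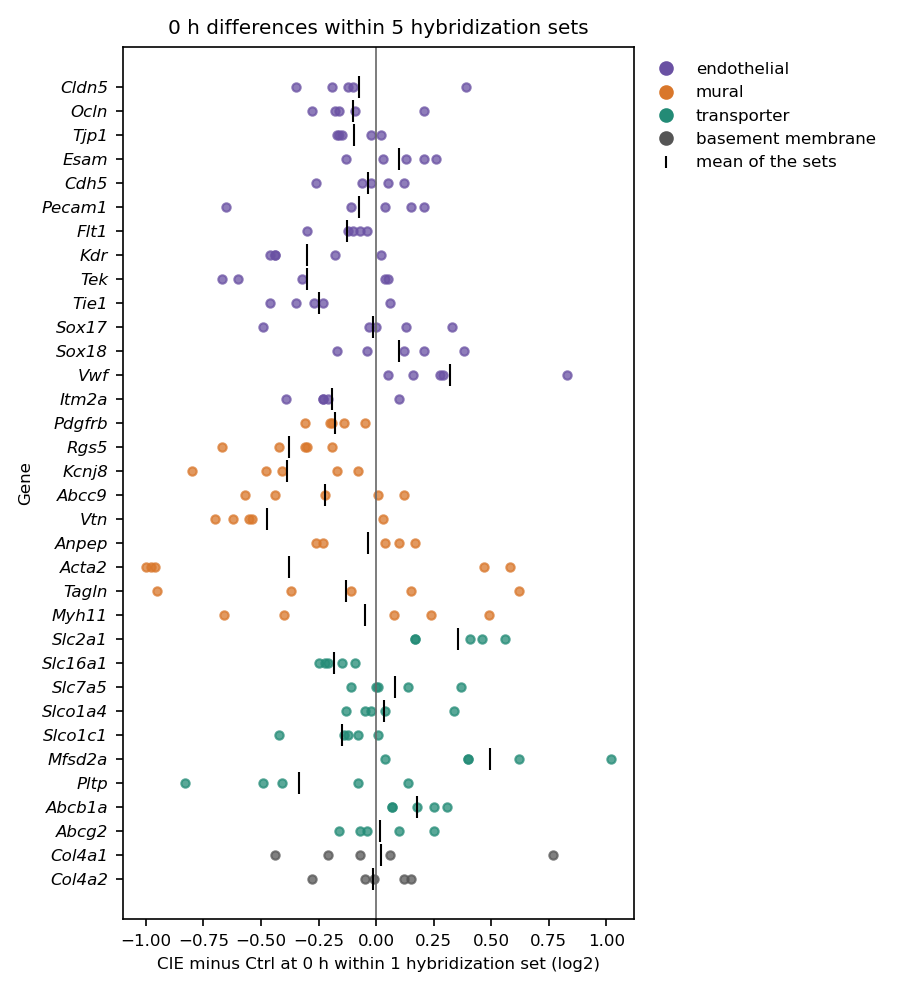
CIE minus Ctrl difference in log2 units at 0 h (x axis) for each of the 34 genes (y axis) within each of the 5 hybridization sets that hold both groups, with their mean as a black tick. Points of Slc2a1, Mfsd2a, Abcb1a and Vwf all lie above 0, and those of Rgs5, Kcnj8, Pdgfrb, Flt1 and Slc16a1 all lie below 0.

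Within the sets at 0 h, 4 members were higher in CIE in all 5 sets and 5 were lower in all 5, against 5.95% and 5.36% of all genes. At 8 h, Vwf, Mfsd2a and Abcb1a were higher in all 5 sets and Sox18 and Rgs5 lower in all 5, against 4.47% and 4.44% of all genes. Rgs5 differences at 8 h ran from -0.62 to -0.08. At 72 h, Rgs5 (from -0.33 to -0.00) and the dim Anpep were lower in all 5 sets, against 1.06% of all genes. No member was higher in all 5 at 72 h (6.06% of all genes), and none had 1 sign in all 6 sets at 7 d (1.45%).

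Vascular genes also moved with time after the last session within an arm. Over the 4 times in CIE mice, 13 of 34 genes were called by an F test, against 3.07% of all genes, and 11 in the set-blocked fit, against 2.32%. In Ctrl mice none was, against 0.313% of all genes, with 15 at an unadjusted p under 0.05 (7.61% of all genes) and 3 (Cldn5, Sox18 and Pdgfrb) at an adjusted p of 0.05 or less (0.561% of all genes). This pair of counts does not show that the arms differ: the F test of the differences of change called none of the 34 genes at 0.01 (0.143% of all genes), with 3 (Sox18, Vtn and Slc2a1) at 0.05 (0.555%). The CIE tests share their 0 h arrays with the CIE minus Ctrl comparison at 0 h. Without CIE replicates 5, 67 and 72, 6 genes were called over time in CIE mice: Cldn5, Itm2a, Pdgfrb, Slc2a1, Mfsd2a and Pltp. Leaving out CIE replicate 5 alone gave 6 genes and CIE replicate 26 alone 8. The share of all genes called was not counted in these reduced fits, so the drop cannot be read as particular to the vascular genes.

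Compared with 0 h, 1 member passed at 8 h in CIE mice (0.77% of all genes), 10 passed at 72 h (8 higher and 2 lower, against 2.15% of all genes, 1.23% higher and 0.923% lower) and 9 at 7 d (8 higher and 1 lower, against 2.07% of all genes, 0.929% higher and 1.14% lower). In the set-blocked fit these counts were 0, 7 and 8 (0.467%, 1.37% and 1.44% of all genes): the calls lost were Kcnj8 at 8 h, Kdr, Slc2a1 and Pltp at 72 h, and Slc2a1 at 7 d. In Ctrl mice none passed at 8 h, 72 h or 7 d (0%, 0.0824% and 0.121% of all genes). Of the 13 genes called over time in CIE mice, 10 had a lower CIE mean at 0 h than at both 72 h and 7 d. One of them, Kdr, sat at the threshold (adjusted p = 0.01) and was called in 3 of the 22 fits that left out 1 array. Vtn averaged 10.12, 10.36, 10.58 and 10.54 in CIE mice at 0 h, 8 h, 72 h and 7 d, and 10.57, 10.46, 10.64 and 10.44 in Ctrl mice. Itm2a averaged 11.88, 11.88, 12.12 and 12.17 in CIE mice, against 12.04 at 0 h and 12.16 at 7 d in Ctrl mice. Pltp averaged 9.80, 9.99, 10.23 and 10.33 in CIE mice and 10.14, 10.11, 10.43 and 10.34 in Ctrl mice. Measured against 0 h in CIE mice, Tek rose by 0.48 at 72 h (adjusted p = 0.00145), Abcc9 by 0.42 (adjusted p = 0.000922), Pdgfrb by 0.38 (adjusted p = 0.00323), and Kdr by 0.31 (adjusted p = 0.00675, and 0.0202 in the set-blocked fit). Kcnj8 rose by 0.37 at 72 h (adjusted p = 0.00709), and its difference of 0.39 at 8 h had an adjusted p of 0.00912 and of 0.0147 in the set-blocked fit. Rgs5 rose by 0.35 at 7 d (adjusted p = 0.00649) and Slco1c1 by 0.26 (adjusted p = 0.00159).

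The receptors and channel subunits were among the 10 genes with low CIE means at 0 h. At 0 h, 8 h, 72 h and 7 d, Kdr averaged 7.72, 7.97, 8.04 and 7.99 in CIE mice and 7.97, 8.11, 7.96 and 7.88 in Ctrl mice. Tek averaged 7.61, 7.91, 8.09 and 8.04 in CIE mice and 7.92, 8.09, 8.07 and 7.96 in Ctrl mice. Of the mural genes, Pdgfrb averaged 9.10, 9.10, 9.48 and 9.50 in CIE mice and 9.24, 9.26, 9.45 and 9.59 in Ctrl mice. In both arms its mean was highest at 7 d. Rgs5 averaged 11.04, 11.10, 11.35 and 11.40 in CIE mice and 11.33, 11.42, 11.47 and 11.45 in Ctrl mice. Kcnj8 averaged 6.94, 7.33, 7.32 and 7.26 in CIE mice and 7.26, 7.21, 7.31 and 7.25 in Ctrl mice. The CIE mean at 0 h was the lowest of the 8 Kcnj8 group means, and the others lay within 7.21 to 7.33. Abcc9 averaged 7.98, 8.23, 8.40 and 8.34 in CIE mice and 8.15, 8.29, 8.33 and 8.25 in Ctrl mice. Slco1c1 averaged 10.82 at 0 h and 11.08 at 7 d in CIE mice, against 11.01 at 7 d in Ctrl mice.

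The other 3 genes did not share this course. Slc2a1 fell by 0.34 at 72 h relative to 0 h in CIE mice (adjusted p = 0.00418, and 0.014 in the set-blocked fit), averaging 11.62, 11.48, 11.28 and 11.31 in CIE mice and 11.29, 11.35, 11.43 and 11.42 in Ctrl mice at the 4 times. Mfsd2a fell by 0.47 at 72 h relative to 0 h in CIE mice (adjusted p = 0.00294), averaging 9.07, 9.14, 8.60 and 8.68 in CIE mice and 8.64, 8.85, 8.68 and 8.80 in Ctrl mice. Cldn5, the claudin that closes brain endothelial junctions, peaked at 8 h in both arms: it averaged 9.62, 10.00, 9.67 and 9.43 in CIE mice and 9.69, 9.94, 9.73 and 9.42 in Ctrl mice. The Cldn5 F test gave an adjusted p of 0.000574 in CIE and 0.012 in Ctrl, and its CIE minus Ctrl differences stayed between -0.07 and 0.06.

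**Figure D4:**
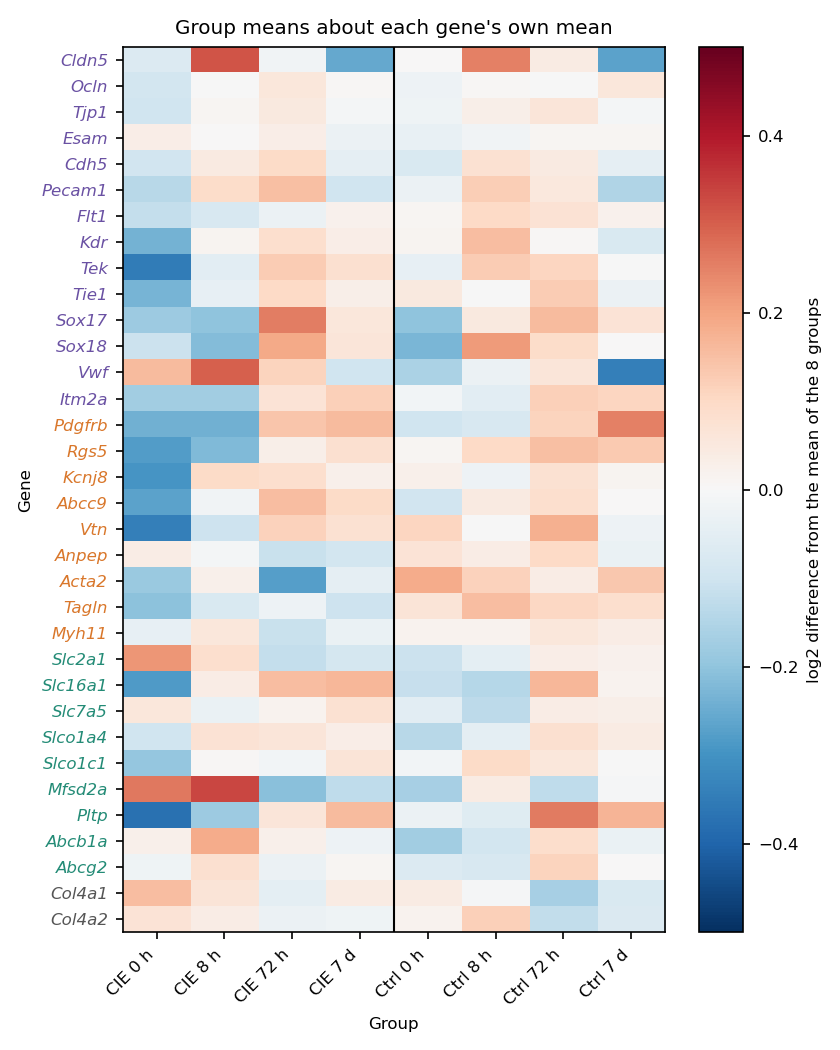
Mean of each of the 8 groups (x axis, CIE times left of Ctrl times) as a log2 difference from the mean of the 8 groups (color), for each of the 34 genes (y axis, labels colored by class). The CIE 0 h column is low for Vtn, Pltp, Tek and Rgs5 and high for Slc2a1 and Mfsd2a, and Cldn5 is high at 8 h in both arms.

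Other genes of the vessel wall were read from 6 further lists. Of 17 genes of leakage and endothelial activation, 1 rose and 3 fell at 0 h, where 1.28% of all genes were called higher and 0.654% lower in CIE. Emcn, the sialomucin endomucin of capillary and venous endothelium, fell by 0.58 (SE 0.048, adjusted p = 2.95e-10, and 6.05e-08 in the set-blocked fit), averaging 7.16 ± 0.11 in CIE and 7.73 ± 0.0706 in Ctrl (SD, n = 6 each). Cav1, the coat protein of caveolae, fell by 0.45 (adjusted p = 0.000542) and Vcam1, a leukocyte adhesion molecule, by 0.45 (adjusted p = 0.00375, and 0.041 with the block). Plvap, which forms the diaphragms of leaky vessels, rose by 0.37 (adjusted p = 0.00256, and 0.0251 with the block). Emcn also differed between times: its fall at 0 h was not matched at 7 d, where its signed difference was higher (adjusted p = 1.19e-06) and was not called.

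Of 25 further angiogenic and vascular signaling genes, Ptprb, the phosphatase that restrains Tek, fell by 0.33 (adjusted p = 0.00329, and 0.0275 in the set-blocked fit) and none rose. Of 23 further transport genes, Slc38a5, a glutamine carrier, fell by 0.48 (adjusted p = 0.00441, and 0.0406 with the block) and none rose. Of all genes, 0.654% were called lower and 1.28% higher at 0 h. None of 22 genes of Wnt barrier signaling, 14 further basement membrane genes and 15 further mural genes passed at 0 h. With 1.93% of all genes called there, a count of 0 is near that share in lists of this size. In these lists Ets1 (-0.27), Fn1 (0.29) and Cspg4 (-0.03) had the smallest F test p-values. The basement membrane members Col4a1 (0.10, adjusted p = 0.756) and Col4a2 (0.05, adjusted p = 0.826) did not pass either. Col4a1 ranged from 8.35 to 9.28 in CIE mice at 0 h (median 8.91) and from 8.42 to 8.99 in Ctrl mice (median 8.78), and its difference was -0.210 (adjusted p = 0.63) without CIE replicates 5, 67 and 72. At 8 h, 72 h and 7 d no gene of the 6 lists passed, where 0.0824%, 0% and 0% of all genes did.

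Markers of other cells were read in the same arrays, as the mean over each list of values centered per gene. At 0 h, 3 of 10 microglia markers fell in CIE (Fcrls, P2ry12 and Olfml3, against 0.654% of all genes) and none rose, and their level ran from -0.57 to -0.17 in CIE arrays and from -0.18 to 0.30 in Ctrl arrays. Of 11 astrocyte markers 1 rose (Gjb6, against 1.28% of all genes), with levels from -0.12 to 0.07 in CIE and from -0.09 to 0.12 in Ctrl. None of the 10 perivascular fibroblast, 8 choroid plexus, 4 blood, 7 oligodendrocyte, 10 medium spiny neuron and 8 cortical pyramidal neuron markers passed at 0 h. With 1.93% of all genes called, a count of 0 is near that share in lists this short. Positive at 0 h were 0 of 7 oligodendrocyte markers (median -0.12), 1 of 10 medium spiny neuron markers (-0.21) and 6 of 8 cortical markers (0.49). Medians of the fibroblast, choroid plexus and blood lists were 0.01, 0.01 and -0.06. Cortical levels ran from -1.03 to 1.26 in CIE arrays and from -1.09 to 0.55 in Ctrl arrays, and fibroblast levels from -0.32 to 0.26 in CIE and from -0.19 to 0.01 in Ctrl. The markers averaged between 4.13 and 14.26 on the log2 scale, and the part of these cells in the vascular differences was not tested.

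Genes of 1 cell type or complex moved together across mice to different degrees. After removal of group means, Acta2 correlated with Myh11 (Pearson's r = 0.81, Spearman's rho = 0.77, permutation p = 1e-05, the smallest 100000 permutations can give, adjusted p = 6e-05 over 6 pairs) and with Tagln (r = 0.76, rho = 0.68, permutation p = 3e-05, adjusted p = 6e-05) over 45 arrays. Without the 2 arrays farthest from the median of Acta2 these were 0.74 and 0.66, and they were positive in 6 of 6 sets. The channel partners Kcnj8 and Abcc9 had r = 0.69 (rho = 0.70, permutation p = 4e-05, adjusted p = 6e-05, positive in 5 of 6 sets, 0.60 without the 2 farthest arrays), and Col4a1 and Col4a2, whose chains form 1 collagen molecule, had r = 0.62 (rho = 0.65, permutation p = 4e-05, adjusted p = 6e-05, positive in 6 of 6 sets, 0.55 without the 2 farthest arrays). Cldn5 and Flt1 gave r = 0.41 (rho = 0.30, adjusted permutation p = 0.0151 for r and 0.0849 for rho, 0.33 without the 2 farthest arrays). Rgs5 and Vtn, both pericyte genes and both low at 0 h in CIE, were not shown to be related within groups (r = 0.20, rho = 0.15, permutation p = 0.213 and 0.373).

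Over the classes, the contractile trio had a median r of 0.78 within itself and 0.06 with the other 6 mural genes, and -0.07 with the transporters. Transporters had a median r of 0.38 among themselves, with Slc2a1 and Mfsd2a at 0.68, and endothelial genes 0.30. Between classes, endothelial genes had a median r of 0.27 with the other 6 mural genes, 0.24 with the contractile trio and 0.19 with transporters. The other 6 mural genes had 0.20 among themselves and 0.24 with transporters. These values are descriptions: the genes of an array share its tissue, its RNA and its normalization.

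**Figure D5:**
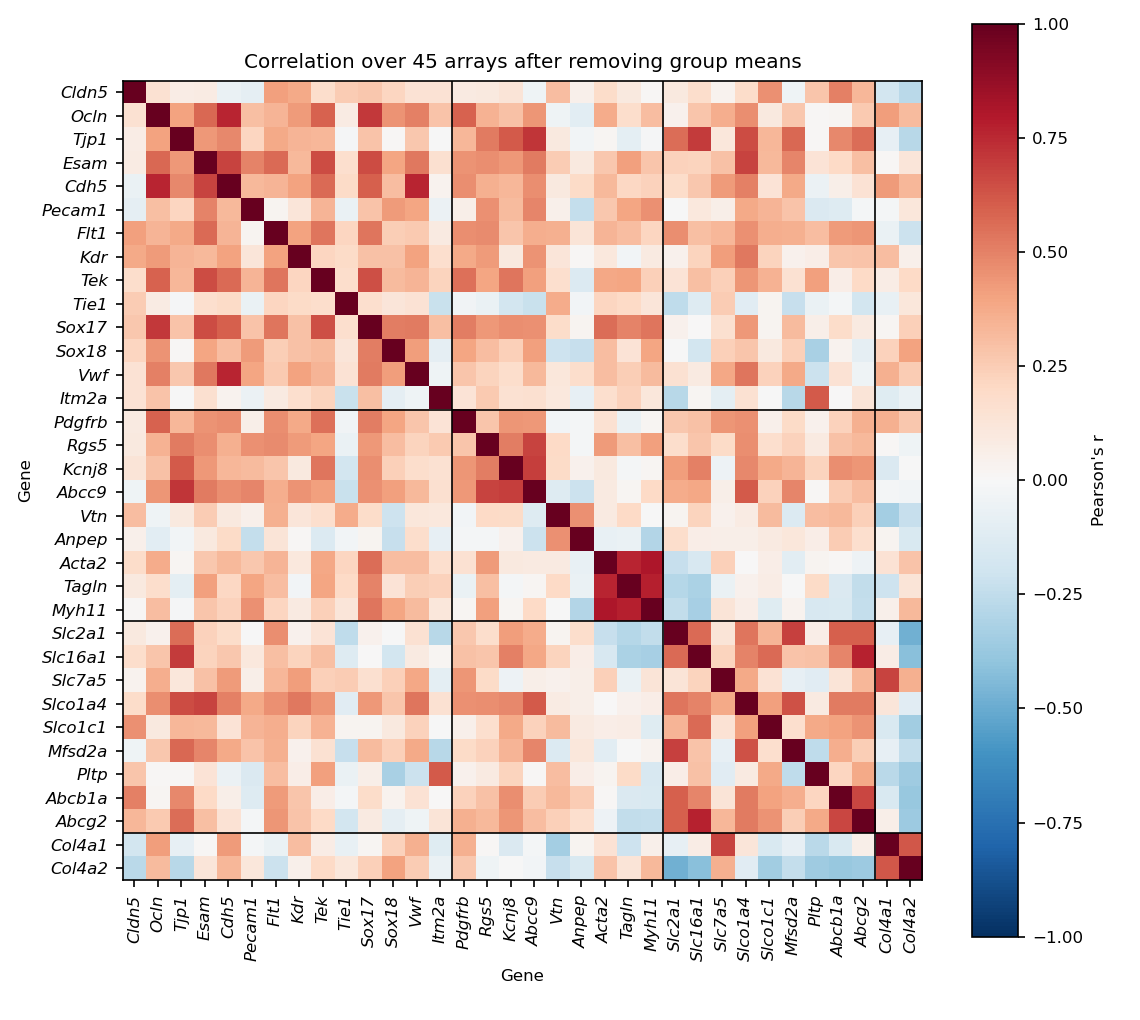
Pearson's r (color) between each pair of the 34 genes (both axes, in class order, black lines between classes) over 45 arrays after group means were removed. Acta2, Tagln and Myh11 form a block of 0.76 to 0.81, and Col4a2 is negative with most transporters, down to -0.48 with Slc2a1.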

How the data were processed

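RNA of single nucleus accumbens dissections was hybridized to Affymetrix mouse whole-genome arrays. The authors background corrected and quantile normalized each hybridization batch by RMA, quantile normalized all arrays together and removed remaining batch effects with ComBat, and the deposited values are log2 intensities of 45037 probesets on 45 arrays. Probesets were named by the platform annotation: 34945 carry 1 symbol, 932 several and 9160 none. The means of all 8 groups were estimated in limma (3.58.1, under R 4.3.3), with adjustment over all probesets within each contrast and thresholds of 0.01 and 0.05. Hybridization sets were inferred from at least 5 equal values (tolerance 2e-08): arrays of a set shared 10 to 57, others at most 1. They are not named in the labels. Mice are separate animals, and no array was dropped or imputed.

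The members, lists and tests were chosen with earlier results of these data known. Full values were given for members called in a CIE minus Ctrl comparison, the F test over the 4 times or a difference from 0 h, and for the 2 members of each class (1 for basement membrane) with the smallest p in the F test over the 4 times, group means for those called over time, and the rest by ranges or counts. Kcnj8, Anpep, Acta2 and Cldn5 were described further after their values were seen. Of the lists, genes past 0.01 were named, otherwise the gene with the smallest F test p. Correlations used Python 3.11.15, numpy 2.4.6 and scipy 1.17.1. On simulated data, the fit at 0 h over 45037 probesets found 32.8% of changes of 0.3, 71.6% of 0.5 and 97% of 1 log2 unit. The simulated noise was normal and independent between probesets, without hybridization sets, and 200 probesets were changed. These shares check the fit and do not measure its sensitivity in the real arrays. Precision is limited by the number of arrays. Alternatives were a set block, array weights, trend and robust fits, other probeset rules, filters, adjustments and arrays left out.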

Additional observations from a re-analysis of the deposited data

Results flagged for a closer look

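In Ctrl mice at 8 h, 1 array (replicate 79) had a Kdr value of 8.22, above the next highest value of 8.10, a gap larger than Dixon's critical value allows for the group's range. In Ctrl mice at 72 h, 1 array (replicate 44) had an Rgs5 value of 11.18, below the next lowest value of 11.44. These were 2 of 64 groups examined, and chance alone sets an array apart in about 1 of 20 groups. The CIE minus Ctrl difference of Vtn went from -0.46 at 0 h to 0.09 at 7 d, a shift of 0.55 (limma adjusted p = 0.00384). That shift was not called with hybridization set as a block (adjusted p = 0.0199) or without CIE 0 h replicate 5.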

How the results depend on the processing

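With the hybridization sets as a block, 1 member was called at 0 h (3 without it), 0 in the F test over the 4 times (3 without it) and 0 in the change at 7 d minus that at 0 h (1 without it). With only the arrays compared in the fit these counts were 0 at 0 h (Vtn adjusted p 0.053) and 0 for 7 d minus 0 h, with 8 over time in CIE. Array weights gave 1 member at 8 h (Sox18), 2 for 7 d minus 0 h and 1 over time in Ctrl, and probesets averaging at least 6 also gave 1 over time in Ctrl (Cldn5). The mean of all probesets of a gene gave 5 members at 0 h, 1 at 8 h (Abcb1a), 0 for 7 d minus 0 h and an Abcb1a difference of -0.015 at 7 d, of opposite sign to 0.01. The probeset of highest variance gave 1 in the F test over the 4 times, and adjustment over the 4 times together gave 1 at 0 h. An adjusted p of 0.05 gave 11 members at 0 h, 2 at 8 h, 6 in the F test, 1 for 72 h minus 0 h, 3 for 7 d minus 0 h and 3 over time in Ctrl. As alternatives chosen after seeing the data, leaving out CIE 0 h replicates 5, 67 and 72 gave 6 over time in CIE and a Col4a1 difference of -0.210 at 0 h, and leaving out Ctrl 0 h replicate 20 gave 5 at 0 h. Except for the set block and the threshold of 0.05, the share of all genes called was not counted in these alternatives or with 1 array left out. Their counts therefore cannot be read as particular to the members. The cause of these shifts was not tested.

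With 1 array left out in turn, the counts ran from 1 (without CIE replicate 5, 17 or 26) to 5 (without Ctrl replicate 20) at 0 h, 0 to 1 at 8 h, 0 to 0 at 72 h and at 7 d, 1 to 4 in the F test, 0 to 0 for 8 h minus 0 h, 0 to 1 for 72 h minus 0 h, 0 to 2 for 7 d minus 0 h, 0 to 1 over time in Ctrl and 6 to 14 over time in CIE. Of differences near 0, Abcb1a at 7 d ran from -0.006 to 0.027, and Col4a1 at 8 h from -0.000 (just under 0, without CIE replicate 15) to 0.127. Quantile normalization, median centering and the trend and robust fit moved none of the counts by over 1.5 times. Replicate numbers pair no samples, since groups share none of them, and the pairing by hybridization set is that of the block. Array number and sets known only from shared values limit what these differences show, and dim genes such as Anpep carry little signal over background.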
